A study of Rattus norvegicus with 6 samples.

Results

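The outer segment of a photoreceptor holds a stack of membrane discs in which light is captured, and a small set of proteins gives those discs their shape. Messenger RNA of 6 such genes was asked for by symbol: Prph2 and Rom1 of the disc rim, Rp1 and Rp1l1 of the axoneme, and Prom1 and Cdhr1 of the newly forming discs. Of these 6 genes, 5 were matched to an entry among the 34170 genes of the expression table, each to exactly 1 entry, and all 5 were abundant enough to be tested. Prph2 was matched to no entry by its symbol and is not analysed here. The 6 names were set with earlier results of these data known, and the rule that matches them uses no measured value.

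Retinas came from 6 male Sprague-Dawley rats, an outbred stock, of about 100 g. The diabetic group was 3 rats injected intraperitoneally on 5 consecutive days with streptozotocin, a toxin of the pancreatic beta cell, at 60 mg/kg after a 12 h fast, and a fasting glucose above 16.7 mmol/L 1 week after the last injection counted as diabetic. The control group was 3 rats injected with citrate buffer, which the labels call WT, and neither group carries an engineered allele. Labelled body weights were between 100.4 and 104 g in the diabetic rats and between 103.4 and 110.5 g in the control rats. Poly-A RNA was sequenced, and each value is an FPKM, a fragment count divided by gene length and by library size. Neither age nor the time of tissue collection is given in the sources used here.

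Discs form at the base of the outer segment as flat outgrowths of the ciliary membrane, and their edges then close into a tightly curved rim. The tetraspanins peripherin-2 (Prph2) and Rom1 assemble into the oligomers that hold the rim, and loss of Rom1 in mice gives large, misshapen discs. Rp1 and Rp1l1 are related proteins with doublecortin domains that sit on the axonemal microtubules beside the disc stack, and discs lose their alignment in mice that lack Rp1. Prominin-1 (Prom1), a membrane protein of curved protrusions, and the photoreceptor cadherin Cdhr1 lie at the open edges of new discs. Human mutations in each of these genes other than Rom1 are an established cause of retinal dystrophy.

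Depth was between 12417686 and 19115426 fragments per library, rebuilt from the FPKM and the gene lengths, and the scarcest of the 5 genes still had 6041 fragments in its lowest library. Counting error was therefore at most 1.29% of a value, well under the spread between animals. Rod markers were high in all 6 libraries, with sums of 45280 to 53951 FPKM in the diabetic libraries and of 56842 to 65751 FPKM in the control libraries, and 0 of the 11 were at 0 in any library. The labelled body weight differs for every library, so the 6 samples were taken as 6 rats. In bulk tissue, fewer photoreceptors and less RNA per photoreceptor cannot be told apart.

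Rom1 was lower and Prom1 higher in diabetic retina with no overlap between groups, Rp1 and Rp1l1 had nearly equal means, and Cdhr1 varied too widely among control rats for its higher diabetic mean to separate. None of these differences passed the test. Differences are given on log2(FPKM + 0.5), diabetic minus control, and were tested with limma over the 16363 genes that averaged 0.5 FPKM or more, with Benjamini-Hochberg adjustment and a threshold of 0.05. Of the 5 genes 0 were called, and of all genes tested 0 were called, which is 0%. With voom, a weighted limma fit of the rebuilt fragments, 0 of the 5 and 2 of all genes were called. At an unadjusted limma p below 0.05 there were 2 of the 5 genes, Rom1 lower and Prom1 higher, and 19.9% of all genes tested (10.7% lower and 9.15% higher). The groups did not overlap in the same 2 of 5 genes, and in 26.2% of all genes tested (13.6% lower and 12.7% higher). With only 5 genes, nothing is read from these shares.

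**Figure D1:**
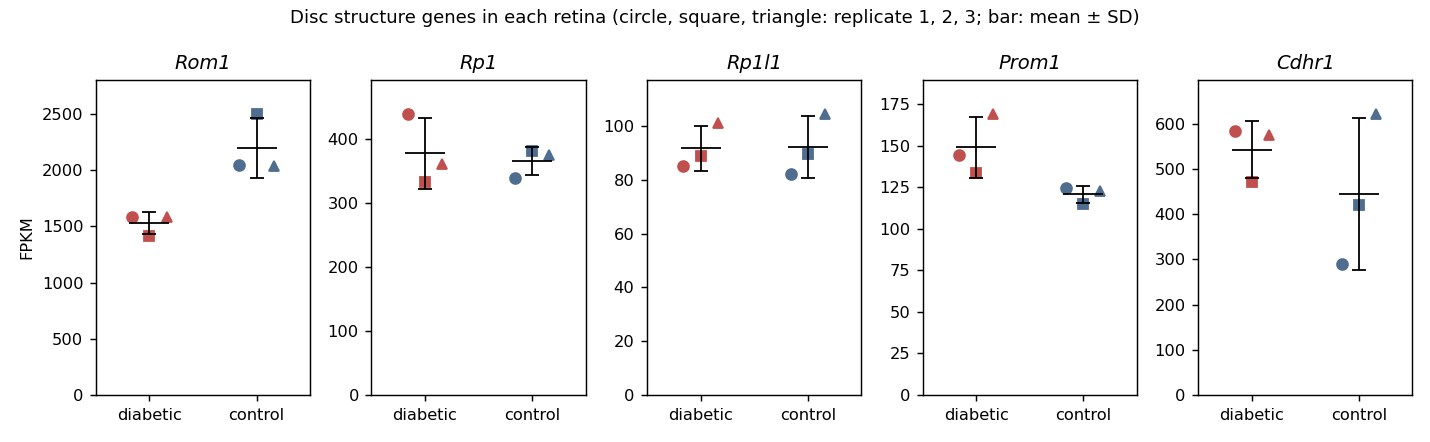
FPKM of the 5 genes in each of 3 diabetic and 3 control retinas, with the group mean ± SD. Each vertical axis starts at 0. Rom1 lies at 1415 to 1584 FPKM in diabetic retina and at 2032 to 2503 FPKM in control retina, while the control values of Cdhr1 spread from 289 to 623 FPKM.

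Rom1, the disc rim tetraspanin, was the most abundant of the 5 genes and ranked 16 of all 34170 genes by mean FPKM. It was at 1584, 1415 and 1583 FPKM in diabetic 1, 2 and 3 and at 2048, 2503 and 2032 FPKM in control 1, 2 and 3. All 3 diabetic values lay below all 3 control values, and diabetic 2 was the lowest and control 2 the highest. The means were 1527 ± 97.0 FPKM in diabetic and 2194 ± 268 FPKM in control retina (SD, n = 3 each), a ratio of means of 0.696. The log2 difference was -0.52 with a standard error of 0.13 and a 95% interval from -0.84 to -0.20, and it did not pass (adjusted p = 0.142, limma). In each of 19 alternative settings Rom1 stayed below control and none called it, with adjusted p between 0.0706 and 0.359. Its log2 difference was -0.24 under quantile normalization, which gives every library the same distribution of values.

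The files place Rom1 (ENSRNOG00000019858) on the minus strand of chromosome 1 from 225126734 to 225128740, with a gene model of 1546 nt, and the sources used here do not give the build. No other gene of the table overlaps Rom1 or any of the other 4. The RefSeq promoter of Rom1, 250 bases before to 50 after the start, lies in GRCr8 at chr1:215255114-215255413 on the minus strand. It is shown because Rom1 is 1 of the 2 genes whose groups did not overlap, with matches to the GC box GGGCGG (searched on both strands) in capitals.
Rom1 promoter: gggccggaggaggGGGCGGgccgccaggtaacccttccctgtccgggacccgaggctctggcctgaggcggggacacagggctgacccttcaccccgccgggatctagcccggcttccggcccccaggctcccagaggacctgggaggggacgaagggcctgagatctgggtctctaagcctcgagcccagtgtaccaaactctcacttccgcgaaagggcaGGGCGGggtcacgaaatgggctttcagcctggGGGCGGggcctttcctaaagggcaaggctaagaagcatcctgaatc
Rom1 held 3 GC boxes in this window, a motif that 33.1% of 33469 RefSeq rat promoters of the same length hold at least once, and its GC content was 67% against a median of 51.7% over those promoters. Neither TAATC, the core bound by the photoreceptor homeodomain factors Crx and Otx2, nor TGCTGA, a half-site of the rod factor Nrl, was found in these 300 bases on either strand. They occurred in 22.9% and 18.4% of the promoters. The RefSeq window of Prph2, by comparison, held 2 matches to TAATC. These are matches of letters and say nothing of which factors bind.

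Rp1, the axonemal protein that aligns the disc stack, was at 440, 333 and 361 FPKM in diabetic 1, 2 and 3 and at 340, 381 and 375 FPKM in control 1, 2 and 3. The highest and the lowest value of all 6 libraries were both from diabetic rats, so the groups overlapped fully. Means were 378 ± 55.5 FPKM in diabetic and 365 ± 22.2 FPKM in control retina (SD, n = 3 each). The log2 difference of 0.04 had a 95% interval from -0.24 to 0.32 (adjusted p = 0.876, limma), so changes of up to 1.25-fold upward or to 0.846-fold downward are within the interval. Its sign depended on single libraries: the difference was -0.07 without diabetic 1 and -0.0096 without control 1.

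Rp1l1, the second doublecortin-domain protein of the axoneme, was the least abundant of the 5 genes. It was at 85.0, 89.0 and 101 FPKM in diabetic 1, 2 and 3 and at 82.0, 89.5 and 105 FPKM in control 1, 2 and 3. The values of one group interleave with those of the other. Means were 91.7 ± 8.44 FPKM in diabetic and 92.0 ± 11.5 FPKM in control retina (SD, n = 3 each), with a log2 difference of -0.0016 and a 95% interval from -0.27 to 0.26 (adjusted p = 0.996, limma). Per length of gene, Rp1 was between 3.57 and 5.18 times as abundant as Rp1l1 in each library. The log2 ratio of Rp1l1 to Rp1 averaged -2.03 ± 0.29 in diabetic and -1.99 ± 0.13 in control retina (SD, n = 3 each), a difference of -0.04 (p = 0.9, exact permutation test, two-sided). The files place Rp1 on chromosome 5 from 15043955 to 15060508 and Rp1l1 on chromosome 15 from 47373120 to 47383508, both on the plus strand.

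Prom1, the prominin of the nascent disc edge, was at 144, 134 and 170 FPKM in diabetic 1, 2 and 3 and at 125, 115 and 123 FPKM in control 1, 2 and 3. All diabetic values lay above all control values, and the nearest pair was diabetic 2 and control 1. Means were 149 ± 18.3 FPKM in diabetic and 121 ± 5.26 FPKM in control retina (SD, n = 3 each), a ratio of means of 1.24. The log2 difference was 0.30 with a standard error of 0.10 and a 95% interval from 0.06 to 0.54, and it did not pass (adjusted p = 0.188, limma). It kept its sign in each of the 19 alternatives, none of which called it, with adjusted p between 0.0988 and 0.396. It was 0.20 when the gene length trend of each library was removed and 0.48 under quantile normalization.

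The files place Prom1 (ENSRNOG00000003098) on the plus strand of chromosome 14 from 71533063 to 71637417. RefSeq lists 2 starts for it in GRCr8, at chr14:71202395-71202694 and chr14:71211389-71211688, both on the plus strand, and the gene table does not divide fragments between them. Both windows are shown since Prom1 was the gene above control in every diabetic rat, again with GC boxes in capitals.
Prom1 upstream start: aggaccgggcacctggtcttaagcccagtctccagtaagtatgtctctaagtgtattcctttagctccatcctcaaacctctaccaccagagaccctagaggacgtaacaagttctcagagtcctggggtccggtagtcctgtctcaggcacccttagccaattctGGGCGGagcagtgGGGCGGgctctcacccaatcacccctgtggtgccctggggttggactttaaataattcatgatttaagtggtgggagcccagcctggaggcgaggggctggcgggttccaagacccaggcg
Prom1 downstream start: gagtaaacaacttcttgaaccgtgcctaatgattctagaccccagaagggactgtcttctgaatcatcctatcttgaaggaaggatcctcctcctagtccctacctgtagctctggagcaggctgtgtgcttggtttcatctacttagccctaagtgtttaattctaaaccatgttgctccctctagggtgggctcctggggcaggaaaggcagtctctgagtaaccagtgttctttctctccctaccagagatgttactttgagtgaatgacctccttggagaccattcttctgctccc
The upstream window had 2 GC boxes and a GC content of 56.7%, and the downstream window had 0 and 48.3%. Neither held TAATC or TGCTGA.

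Cdhr1, the photoreceptor cadherin that ties new discs to the inner segment, was at 583, 471 and 575 FPKM in diabetic 1, 2 and 3 and at 289, 421 and 623 FPKM in control 1, 2 and 3. Control 1 was below all diabetic values and control 3 above all of them, so the control values enclose the diabetic ones on both sides. Among control rats the highest value was 2.15 times the lowest, against 1.24 times among diabetic rats. Means were 543 ± 62.4 FPKM in diabetic and 444 ± 168 FPKM in control retina (SD, n = 3 each). The log2 difference of 0.35 had a 95% interval from -0.26 to 0.97 (adjusted p = 0.492, limma), and it was 0.08 without control 1 and 0.63 without control 3. Control 3 was also the library with the most lens marker RNA, a summed 272 FPKM over 7 genes against 8.44 to 32.8 FPKM in the other 5 libraries. As control 3 held the highest control value of Cdhr1, leaving it out had to enlarge the difference, whatever its lens RNA. With the gene length trend removed, the 3 control libraries still lay at -0.53, 0.02 and 0.51 around their mean on the log2 scale. Cdhr1 (ENSRNOG00000013330) lies on the minus strand of chromosome 16 from 14328160 to 14348046.

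Set in order by mean FPKM, which is per length of gene, the levels ran from Rom1 through Cdhr1, Rp1 and Prom1 to Rp1l1. In diabetic retina no neighbours in this order overlapped. In control retina Cdhr1 and Rp1 overlapped, and Cdhr1 was below Rp1 in control 1, at 0.851 times its level. The summed level of the 5 genes was 2443 to 2837 FPKM in the diabetic libraries and 2884 to 3510 FPKM in the control libraries, and Rom1 made up most of it. Across the 6 libraries the genes did not move as 1 block: Pearson's r of log2 levels was -0.74 between Rom1 and Prom1, and 0.04 once the mean of each group was removed. The closest pair was Rp1l1 and Cdhr1, with r of 0.70 over 6 libraries and 0.80 within groups. These correlations rest on 6 libraries that share depth and scaling, and are descriptions only. Prom1 and Cdhr1, which lie at the same disc edge, had a log2 ratio of -1.86 ± 0.13 in diabetic and -1.81 ± 0.56 in control retina (SD, n = 3 each), a difference of -0.05 (p = 0.9, exact permutation test, two-sided).

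**Figure D2:**
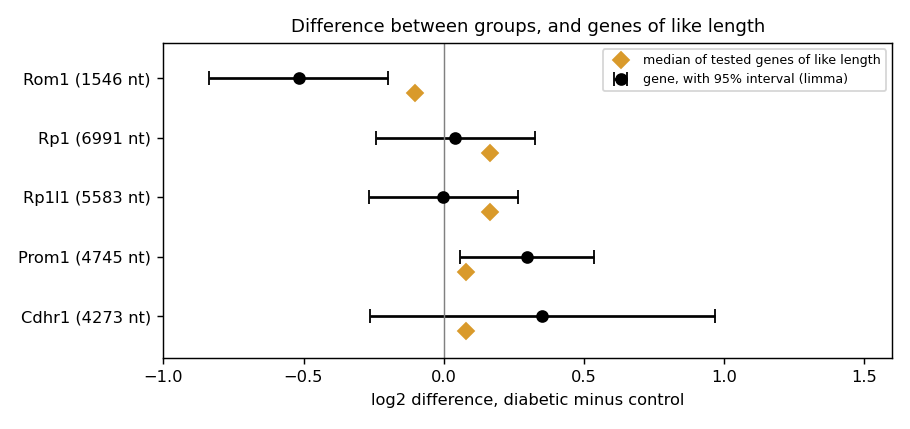
Log2 difference (diabetic minus control) of the 5 genes with 95% intervals from limma, beside the median difference of tested genes in the same of 10 gene length classes. The intervals of Rom1 (-0.84 to -0.20) and Prom1 (0.06 to 0.54) do not reach 0, and those of Rp1, Rp1l1 and Cdhr1 include it.

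Values in this table moved with gene length, and the 5 genes span a wide range of lengths. Rom1, at 1546 nt, falls in the class of tested genes between 1378 and 1734 nt (1 of 10 length classes of equal size), where the median log2 difference was -0.10. Cdhr1 and Prom1, at 4273 and 4745 nt, fall in the class with a median of 0.08, and Rp1l1 and Rp1, at 5583 and 6991 nt, in the longest class with a median of 0.17. With the length trend removed the log2 differences were -0.44 for Rom1, 0.20 for Prom1, 0.27 for Cdhr1 and -0.13 for both Rp1 and Rp1l1. Rescaling to TPM, which divides each library by its summed FPKM, moved the median of all genes to 0.13. On that scale Rom1 was at -0.38 and Prom1 at 0.44, which is -0.51 and 0.31 relative to that median.

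Most rod markers were also lower in diabetic retina, so each gene was set against the rods of its own library. Of 11 rod marker genes 10 were lower, with a median log2 difference of -0.20 against 0.00034 over all genes, and 0 were called by limma. Under quantile normalization the median of the rod markers was 0 and that of all genes was -0.0030. Relative to the mean log2 level of these 11 markers, Rom1 measured -0.61, -0.67 and -0.73 in the libraries of diabetic 1, 2 and 3, against -0.44, -0.27 and -0.48 in those of control 1, 2 and 3. The groups did not overlap, and the mean difference was -0.27 (p = 0.1, exact permutation test, two-sided). Prom1 measured -4.06, -4.06 and -3.95 in diabetic retina, against -4.47, -4.71 and -4.52 in control retina, again without overlap, with a mean difference of 0.54 (p = 0.1, exact permutation test). Such a ratio does not depend on how a library was scaled to its total, but it does carry the gene length trend. It also carries the markers: their mean log2 level was 11.24, 11.13 and 11.36 in diabetic 1, 2 and 3. In control 1, 2 and 3 it was 11.44, 11.56 and 11.47, so a gene with equal FPKM in both groups would rise in this ratio. Rp1 and Rp1l1 had log2 differences of 0.04 and -0.0016 before they were set against the rods. The share of all genes without overlap in such a ratio was not computed. With the gene length trend removed the mean difference was -0.26 for Rom1 and 0.38 for Prom1 (p = 0.1 each, exact permutation test). Rp1 was higher by 0.29 without overlap (p = 0.1, exact permutation test), a difference of 0.17 without diabetic 1 and of 0.05 with overlap of groups (p = 0.9, exact permutation test) once the length trend was removed. Relative to the rod markers, Rp1l1 and Cdhr1 were higher by 0.24 and 0.60 with overlapping groups (p = 0.2 and p = 0.3, exact permutation test). The difference of Rp1l1 was 0.05 with the length trend removed (p = 0.5, exact permutation test). That of Cdhr1 was 0.45 with the length trend removed (p = 0.3, exact permutation test) and 0.35 without control 1. The smallest p that 3 against 3 rats can give is 0.1, and over the 7 ratios tested the smallest adjusted p was 0.233. The part of rod number in these levels was not tested.

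**Figure D3:**
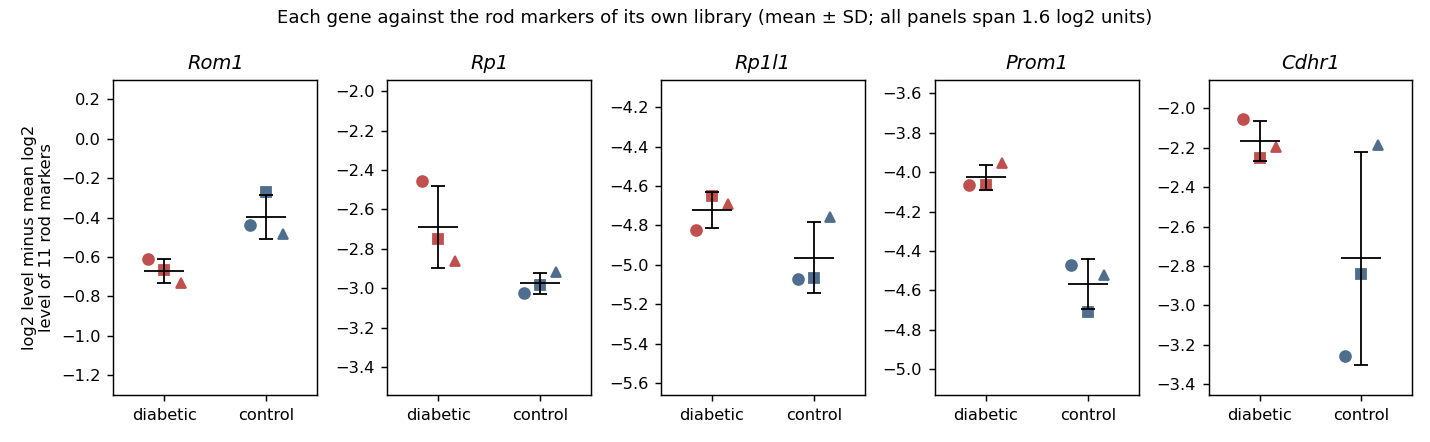
Log2 level of each gene minus the mean log2 level of 11 rod markers in the same library, for 3 diabetic and 3 control retinas with mean ± SD. Rom1 is lower (mean difference -0.27) and Prom1 higher (0.54) in every diabetic library than in any control library. Cdhr1 in control 3 lies within the diabetic values. The mean level of the rod markers is itself lower in every diabetic library than in any control library.

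Other genes that build or serve the outer segment were divided between the directions, and 0 of 30 tested were called. A list of 34 was drawn up with earlier results of these data known, 32 were matched by symbol, and Gucy2e and Myo7a fell below the 0.5 FPKM minimum. Of the 30, 19 were higher and 11 lower in diabetic retina, with a median log2 difference of 0.12 against 0.00034 over all genes. Under quantile normalization 23 were higher and 6 lower. At an unadjusted limma p below 0.05 there were 6 higher and 6 lower of the 30, beside 9.15% higher and 10.7% lower of all genes tested, and voom called 0. The groups did not overlap in 5 in the higher and 7 in the lower direction, beside 12.7% and 13.6% of all genes tested. Prcd and Rpgrip1 were matched to no entry and are not analysed here.

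Among partners of the disc itself, the rim transporter Abca4, which clears retinoids from the disc, was at 191, 154 and 180 FPKM in diabetic 1, 2 and 3, against 182, 204 and 195 FPKM in control 1, 2 and 3, with a log2 difference of -0.15 and an interval from -0.39 to 0.08. Cngb1, the channel subunit whose glutamic acid-rich part binds the Prph2 and Rom1 rim, was at 162, 156 and 165 FPKM in diabetic 1, 2 and 3 and at 192, 211 and 209 FPKM in control 1, 2 and 3. It shared with Rom1 the lack of overlap and the lower direction, at a log2 difference of -0.34 (adjusted p = 0.129, limma). The disc lipid flippase Atp8a2 had 0.50 with overlapping groups, and the actin-bundling protein Fscn2 had 0.13.

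Genes that work around the disc stack or its base were divided too, with Impg2, Impg1, Pcdh15 and Mak above control by their means and Ush1c below. Impg2, a proteoglycan of the matrix between photoreceptors, was at 289, 211 and 272 FPKM in diabetic 1, 2 and 3 and at 139, 156 and 197 FPKM in control 1, 2 and 3, without overlap (log2 difference 0.65, adjusted p = 0.139, limma). Its relative Impg1 had 0.36, and Pcdh15, a protocadherin listed here for calyceal processes at the outer segment base, had 0.51, both with overlap. Whether rat photoreceptors have such processes was not examined. Ush1c, a scaffold protein of the same processes that was chosen for naming after its values were seen, was at 9.23, 9.16 and 6.61 FPKM in diabetic 1, 2 and 3, against 12.3, 9.87 and 11.6 FPKM in control 1, 2 and 3, without overlap (log2 difference -0.42, adjusted p = 0.203, limma). Mak, a ciliary kinase of photoreceptors that acts on Rp1 in mice, was at 126 ± 16.7 FPKM in diabetic and 109 ± 3.86 FPKM in control retina (SD, n = 3 each), without overlap (log2 difference 0.20, adjusted p = 0.326, limma). The lowest log2 difference of the 30, chosen for naming after its value was seen, was that of Tulp1, a trafficking protein of photoreceptors, at -0.49 without overlap. Of 10 partners shorter than 2100 nt 8 were lower, and of 20 longer ones 17 were higher. With the length trend removed these counts were 7 of 10 and 17 of 20, and the medians were -0.11 and 0.19.

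**Figure D4:**
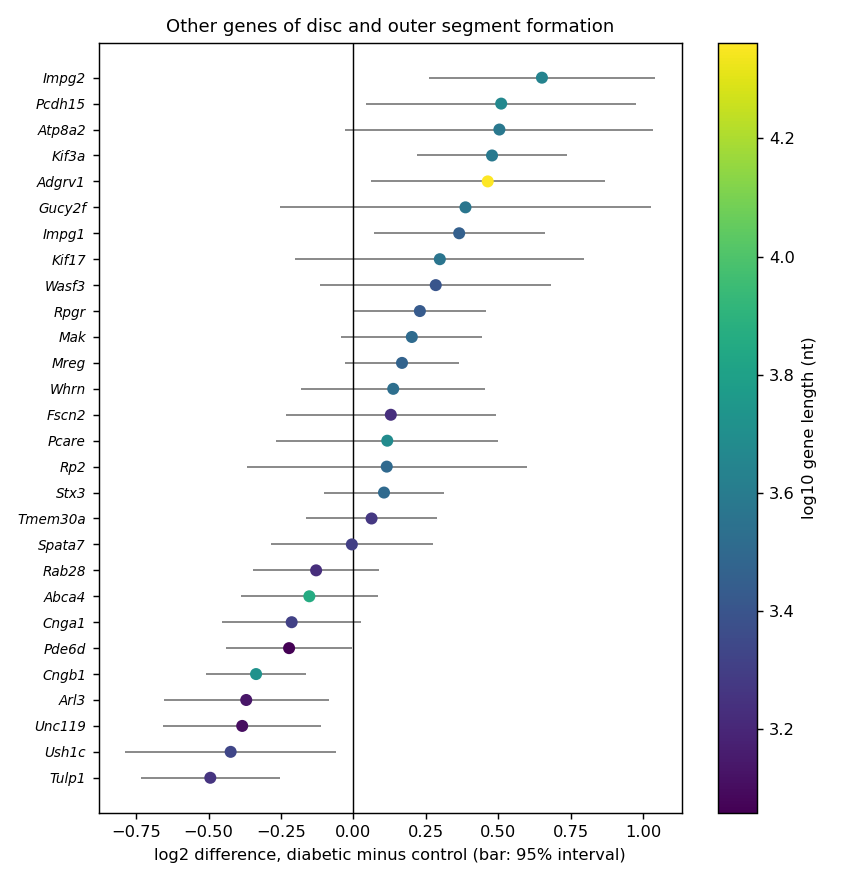
Log2 difference (diabetic minus control) of 28 of the 30 other genes of disc and outer segment formation with 95% intervals from limma, coloured by log10 of gene length. Values run from -0.49 for Tulp1 to 0.65 for Impg2, none was called, and short genes lie mostly at the lower end.

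Of the transcription factors that drive photoreceptor genes, 0 of 8 were called, with 6 higher and 2 lower and a median log2 difference of 0.06. Crx was at 702 ± 53.0 FPKM in diabetic and 661 ± 76.1 FPKM in control retina (SD, n = 3 each). Nrl was at 1364 ± 123 FPKM in diabetic and 1690 ± 189 FPKM in control retina, without overlap (log2 difference -0.31, adjusted p = 0.260, limma). Nr2e3 and Otx2 had log2 differences of 0.03 each, Otx2 at 1.70 ± 1.33 FPKM in diabetic and 1.30 ± 0.19 FPKM in control retina (SD, n = 3 each).

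Relatives outside the 5 genes were sought among prominin, doublecortin-domain and cadherin-related genes, and those matched were all less abundant than any of the 5. No relative of Rom1 was among them. Prom2, the other prominin, was at a mean of 0.124 FPKM in diabetic and 0.123 FPKM in control retina, which is below the minimum for testing. The most abundant of 11 matched relatives was Dclk2, a doublecortin-domain kinase, at 14.6 ± 1.69 FPKM in diabetic and 13.0 ± 0.37 FPKM in control retina (SD, n = 3 each). All 6 relatives that could be tested had a positive log2 difference, 0 were called, and with the length trend removed 5 of 6 did.

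**Figure D5:**
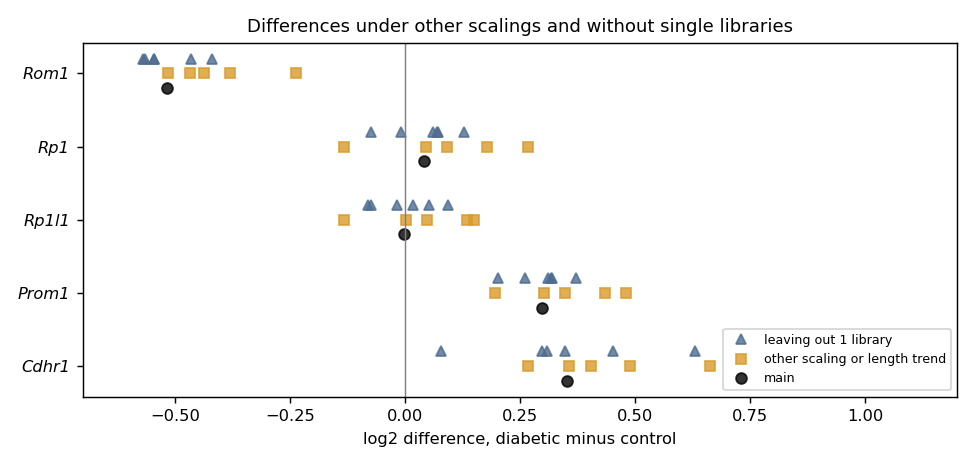
Log2 difference (diabetic minus control) of the 5 genes in the reported fit, with TPM, median-of-ratios or quantile scaling, with voom, with the length trend removed, and without each single library. Rom1 stays between -0.57 and -0.24 and Prom1 between 0.20 and 0.48, while Rp1 and Rp1l1 lie on both sides of 0.

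Genes with the profile most like each of the 5 were sought by Pearson's r of log2 levels over the 6 libraries, among 7539 genes that have a symbol and average 10 FPKM or more. For Rom1 they were Unc119 (r of 0.997), a carrier of lipid-modified photoreceptor proteins, Alyref, an adaptor of messenger RNA export, and Tomm6, a subunit of the mitochondrial import pore. Unc119 was at 1068, 968 and 1091 FPKM in diabetic 1, 2 and 3 and at 1287, 1507 and 1293 FPKM in control 1, 2 and 3, so it has the low diabetic 2 and the high control 2 of Rom1. The length class of Rom1 also had its lowest median log2 level in diabetic 2 (-0.12) and its highest in control 2 (0.045), relative to the control mean. For Prom1 they were AABR07031756.1 (0.995), the cohesin subunit gene Rad21 and the centromere protein gene Cenpc. For Cdhr1 they were the talin gene Tln2 (0.997), Txlng and Vps39, and Tln2 was at 24.1, 21.0 and 23.6 FPKM in diabetic and at 14.5, 18.8 and 24.4 FPKM in control 1, 2 and 3. For Rp1 they were Hnrnpll (0.995), Ctdspl2 and Ehd3, and for Rp1l1 Gpatch2l (0.996), Tial1 and Ttll5. No gene was nearest to 2 of the 5. These values of r are the highest of those 7539 and are given as descriptions.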

How the data were processed

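Per the labels' protocols, the library kit for poly-A RNA is not described as strand-specific, and read pairs were sequenced. HISAT2 2.0.5 was used, per the submitters' processing notes. Neither counting tool nor build nor annotation is given in the sources used here. Per the file headers, the deposited values are FPKM with gene lengths, in 1 table by the authors. FPKM times length gave whole fragments, within 0.05, for 100% of values above 0.

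Genes that averaged 0.5 FPKM or more entered a limma fit (limma 3.58.1, R 4.3.3) of log2(FPKM + 0.5) (group as the only term, intensity trend, two-sided, Benjamini-Hochberg over 16363 genes, threshold 0.05), and ratios with exact permutation tests in scipy 1.17.1. Fold changes on this scale understate changes of low genes. The length trend was removed per library by lowess with a span of 0.3. The functions were checked on simulated data. Replicates differed by more than sampling noise, with a lowest reduced chi-square of 10.7.

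The members and the lists were chosen with earlier results of these data known, and the motifs with the sequences in view. The rule for named genes takes the members, fixed partners and factors, the most abundant relative and the 3 most similar profiles. Tulp1, Ush1c and Gucy2f fall outside it and were named after their values were seen. Cell type lists were rod, cone, bipolar, amacrine, ganglion, Muller, pigment epithelium and lens genes. Planned ratios of Prph2 were not computed, and some list genes enter counts but are not reported here by name. Alternatives were other pseudocounts, filters, scalings, limma settings, voom, protein-coding genes alone, a replicate block and leaving out each library.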

Additional observations from a re-analysis of the deposited data

How the results depend on the processing

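The count of 0 genes called over all genes tested became 2 with voom on the rebuilt fragments and lay between 0 and 4 when 1 library was left out: 4 without diabetic 1, and 1 each without diabetic 2 and without control 2. Genes at an unadjusted p below 0.05 numbered 3255, and between 2073 (without diabetic 2) and 4010 when 1 library was left out. None of the 5 disc genes was called in any of 19 alternatives. Rom1, Prom1 and Cdhr1 kept their signs in all 19. Rp1 changed sign to -0.13 with the length trend removed, and lay between -0.073 and 0.13 without single libraries. Rp1l1, at -0.0016, changed sign to 0.14 with TPM, 0.0025 with median-of-ratios scaling, 0.15 under quantile normalization and 0.048 with voom, and lay between -0.081 and 0.094 without single libraries. The cause was not tested. Without single libraries, the ratio of Rp1l1 to Rp1 differed by between -0.14 and 0.12 and that of Prom1 to Cdhr1 by between -0.32 and 0.24. Same-numbered diabetic and control libraries did not deviate together (correlations of -0.05, -0.08 and 0.00061), so the numbers were not taken as pairs. With the replicate number as a block 0 genes were called, 2790 had an unadjusted p below 0.05, and the log2 difference of Rom1 stayed at -0.52 (adjusted p = 0.262, limma). Counting error was at most 1.29% for the 5 genes, so depth did not limit them.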

Other observations

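Markers of other retinal cells showed 0 genes called in any list. Of 10 cone genes 4 were higher and 6 lower in diabetic retina (median log2 difference -0.07), of 7 bipolar cell genes 6 were higher (0.07), of 5 amacrine cell genes 5 were higher (0.23), of 6 ganglion cell genes 3 were higher (0.0059) and of 6 Muller glia genes 4 were higher (0.05). Of 6 pigment epithelium genes 4 were lower (-0.31), with sums of 35.8 to 87.1 FPKM in the diabetic libraries and of 40.3 to 85.5 FPKM in the control libraries, and 7 of 7 lens genes were lower (-1.01), a list whose sum was highest in control 3. The amacrine list had 3 of 5 genes higher with the length trend removed.

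The control retinas were less alike than the diabetic ones in Cdhr1 and in several long genes that work beside it. Of the 30 tested partners, 11 were lowest in control 1 and highest in control 3, as Cdhr1 and Rp1l1 were, or 36.7%, against 20.4% of all genes tested. They include Gucy2f, a retinal guanylate cyclase, at 31.6, 22.4 and 26.3 FPKM in diabetic 1, 2 and 3, against 13.4, 20.7 and 29.6 FPKM in control 1, 2 and 3. The flippase gene Atp8a2 was at 16.1, 13.5 and 13.2 FPKM in diabetic 1, 2 and 3, against 6.89, 10.3 and 13.5 FPKM in control 1, 2 and 3. The longest class of tested genes had the same order, with median log2 levels of -0.060, -0.036 and 0.106 in control 1, 2 and 3, relative to the control mean. The share among genes of like length was not computed. Nor does the order measure spread: Impg2, which had it too, had an SD of 41.0 FPKM in diabetic and 30.2 FPKM in control retina. The pattern was noticed after the values were seen, and its source was not tested.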
